A study of Bos taurus with 15 samples.

Results

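The transcripts of 6 respiratory chain subunits were followed in single bovine oocytes from the dominant follicle (DF), the follicle that goes on to ovulate. NDUFB8, NDUFB6 and NDUFA7 belong to complex I, and UQCR11, UQCRQ and UQCRH to complex III. The genes were chosen by name among subunits of both complexes with a symbol in the study's table of differences between oocyte classes. That table was made in part on these oocytes, so the 6 are not an unselected draw from the 21218 genes in the deposited counts.

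Complex I (NADH dehydrogenase) takes electrons from NADH and passes them to ubiquinone, and complex III (ubiquinol-cytochrome c reductase) passes them on to cytochrome c. Both pump protons across the inner mitochondrial membrane, and the gradient drives ATP synthesis. All 6 genes lie in the nucleus, and their proteins are small subunits that surround the catalytic core. In the mammalian oocyte, mitochondria are the main source of ATP for meiotic maturation.

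The oocytes came from synchronised heifers that received a GnRH analogue with an intravaginal progesterone device, and then prostaglandin F2a, without FSH stimulation. Each oocyte was from a different animal. The time points were 24 h before ovulation (T1, 6 oocytes), 19-23 h after oestrus detection (T2, 4 oocytes) and 2 h before ovulation (T3, 5 oocytes). By the study's methods a subgroup of animals was given a second dose of GnRH. The wording ties this dose to the collection that held both T2 and T3, most closely to T3, and the labels do not say which animals had it, so dose and time point cannot be told apart. The oocytes were collected in more than 1 animal trial, and the labels do not give the trial, so trial and time point could not be separated either. The titles of the T2 samples place the same hours before ovulation, and the treatment field, used here, places them after oestrus detection. The study's methods give 19-23 h after oestrus detection and about 2 h before ovulation for the same day of slaughter. The order of T2 and T3 in time is therefore not established, and differences from T2 to T3 compare groups of oocytes.

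Poly-A RNA of each oocyte was captured with oligo-dT beads, amplified and sequenced, and the values are raw read counts per gene. Of the 15 oocytes, 11 were kept by the study and enter the main comparison: T1.1, T1.2, T1.3, T1.5 and T1.6, T2.1 to T2.4, and T3.2 and T3.4. The study's list leaves out 4 oocytes, namely T3.1, T3.3 and T3.5 of T3 and T1.4 of T1, and their values are given separately. Its methods say that samples with few counts in genes were removed, without naming them, and T1.4 had 2874041 counts, within the range of the oocytes kept. Total counts were between 824854 and 4894970 in the 11 oocytes and between 175263 and 4894970 in all 15. The number of genes with more than 1 count ran from 8257 to 10898 in the 11 oocytes. It was 7071 in T1.4, below all of the 11, and went down to 2366 in T3.5. T3.1 stood apart, with 18.8% of its counts on OOSP2, an oocyte-secreted protein gene. Oocyte markers FIGLA, OOSP2 and KPNA7 had counts in all 15 libraries, as did STAR, the only cumulus and granulosa marker that could be named, although the cumulus cells had been removed by pipetting. The mean level of STAR was 7.47 log2 CPM ± 0.64 (SD, n = 5) at T1, 7.82 ± 0.42 (n = 4) at T2 and 6.51 ± 0.75 (n = 2) at T3. The order of its means was the reverse of that of the 6 subunits. Its log2 fold change was 0.30 ± 0.43 (SE) from T1 to T2 (adjusted p = 0.873, edgeR). From T2 to T3 it was -1.27 ± 0.59 (adjusted p = 0.284, edgeR). In the same 2 comparisons FIGLA had -2.75 and 3.00, OOSP2 -0.08 and -0.15, and KPNA7 0.49 and -1.49. The part of STAR in the differences of the subunits was not tested.

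Levels are given as log2 CPM, read counts scaled to library size by TMM normalization, on a log2 scale and with a prior count of 2. CPM is a share of the library, so the amount of RNA per oocyte was not measured. Because no correction for transcript length could be made, levels are compared between oocytes and not between genes. In every one of the 6 genes the mean level was lowest at T2. In the fitted model it was between 6.74-fold and 14.6-fold lower at T2 than at T1, and between 6.73-fold and 31.3-fold higher at T3 than at T2. The size of the difference between T1 and T2 rests in part on T1.2: without this oocyte the log2 fold changes were between -3.27 (UQCR11) and -1.57 (NDUFB6), in place of -3.87 to -2.75. None of these differences passed edgeR's quasi-likelihood test after Benjamini-Hochberg adjustment, and no gene of the 10198 tested did, although 1242, 1761 and 927 genes had an unadjusted p under 0.05 between T2 and T1, T3 and T2, and T3 and T1 (0.0% called between T2 and T1, 0.0% between T3 and T2 and 0.0% between T3 and T1).

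The subunits of complex I are described first. NDUFB8 is an accessory subunit of the proton-pumping membrane arm. At T1, its level was 7.46 in T1.1, 11.12 in T1.2, 7.98 in T1.3, 9.21 in T1.5 and 7.19 log2 CPM in T1.6. At T2 it was 4.87, 6.19, 5.87 and 6.53 log2 CPM in T2.1 to T2.4, and at T3 it was 10.33 in T3.2 and 10.43 in T3.4. All 4 T2 oocytes lay below all 5 T1 oocytes, by at least 0.66, and both T3 oocytes lay 3.80 or more above the highest T2 oocyte. Those at T3 were inside the range of T1. The fitted log2 fold change was -3.44 ± 0.80 (SE) from T1 to T2 (adjusted p = 0.132, edgeR) and 4.41 ± 0.91 from T2 to T3 (adjusted p = 0.0625, edgeR). In counts, NDUFB8 ranged from 33 in T2.1 to 4993 in T1.2 over the 11 oocytes.

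NDUFB6 is a second accessory subunit of the membrane arm. Its level at T1 was 8.79, 11.38, 7.97, 9.31 and 7.04 log2 CPM in T1.1, T1.2, T1.3, T1.5 and T1.6. At T2 it was 6.99, 6.43, 6.08 and 7.53, and at T3 it was 9.91 in T3.2 and 9.22 in T3.4. Unlike NDUFB8, its T1 and T2 oocytes overlapped, since T1.6 lay below T2.4. Both T3 oocytes were above all T2 oocytes, by at least 1.68, the smallest gap of the 6 genes. The fitted log2 fold changes were -2.83 ± 0.76 from T1 to T2 (adjusted p = 0.144, edgeR) and 2.75 ± 0.86 from T2 to T3 (adjusted p = 0.118, edgeR).

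NDUFA7 is an accessory subunit of the arm that projects into the matrix. Its levels at T1 were 5.13, 9.64, 5.60, 8.69 and 5.17 log2 CPM in T1.1, T1.2, T1.3, T1.5 and T1.6. The T2 oocytes were close to each other, at 3.78, 4.10, 4.26 and 4.82, and those at T3 were at 8.47 and 9.70. The T2 oocytes lay below every T1 oocyte by at least 0.32, and the T3 oocytes lay at least 3.65 above T2. The fitted log2 fold changes were -3.81 ± 0.94 (adjusted p = 0.132, edgeR) and 4.97 ± 1.07 (adjusted p = 0.0625, edgeR), the second of which was the largest difference seen in the 6 genes. Without T3.4 the second was 4.14, and without T1.2 the first was -2.66. T2 counts of NDUFA7 were low, from 15 to 63.

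Of the complex III subunits, UQCR11 is among the smallest proteins. At T1 its level was 3.07, 7.46, 4.70, 7.58 and 4.64 log2 CPM in T1.1, T1.2, T1.3, T1.5 and T1.6. At T2 it was 1.76, 3.00, 2.27 and 3.25, and at T3 it was 7.21 and 6.40. The T2 values rested on 3, 22, 7 and 20 counts, so T2.1 was at the floor of 3 counts that a count of 0 allows. T1.1 lay below T2.4, and the other T1 oocytes lay above all T2 oocytes. Both T3 oocytes were at least 3.16 above T2. The fitted log2 fold changes were -3.87 ± 0.92 (adjusted p = 0.132, edgeR) and 4.31 ± 1.02 (adjusted p = 0.0643, edgeR).

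UQCRQ is a small subunit that sits beside cytochrome b. Its T1 levels were 8.70, 12.61, 9.02, 11.96 and 8.48 log2 CPM in T1.1, T1.2, T1.3, T1.5 and T1.6. At T2 they were 7.26, 8.81, 8.41 and 8.74, and at T3 11.51 and 12.09. T1.1 and T1.6 fell within the range of T2, and both T3 oocytes were at least 2.70 above it. Of the 6 genes, UQCRQ had the smallest difference between T1 and T2, a log2 fold change of -2.75 ± 0.85 (adjusted p = 0.174, edgeR). From T2 to T3 it was 3.41 ± 0.97 (adjusted p = 0.0885, edgeR).

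UQCRH is the hinge protein, which lies against cytochrome c1 where cytochrome c docks. It had 8.49, 11.95, 7.63, 10.47 and 7.89 log2 CPM in T1.1, T1.2, T1.3, T1.5 and T1.6. The T2 oocytes had 5.93, 6.23, 6.55 and 7.27, and the T3 oocytes 10.42 and 11.15. T2 lay below T1 in every oocyte, by at least 0.37, and T3 lay above T2 by at least 3.15. The fitted log2 fold changes were -3.69 ± 0.86 (adjusted p = 0.132, edgeR) and 4.25 ± 0.97 (adjusted p = 0.0625, edgeR). In RefSeq's gene order (assembly ARS-UCD2.0), UQCRH overlaps LRRC41, and the other 5 genes overlap none. These libraries do not mark strand, so reads of UQCRH and LRRC41 cannot be told apart where the genes overlap.

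**Figure D1:**
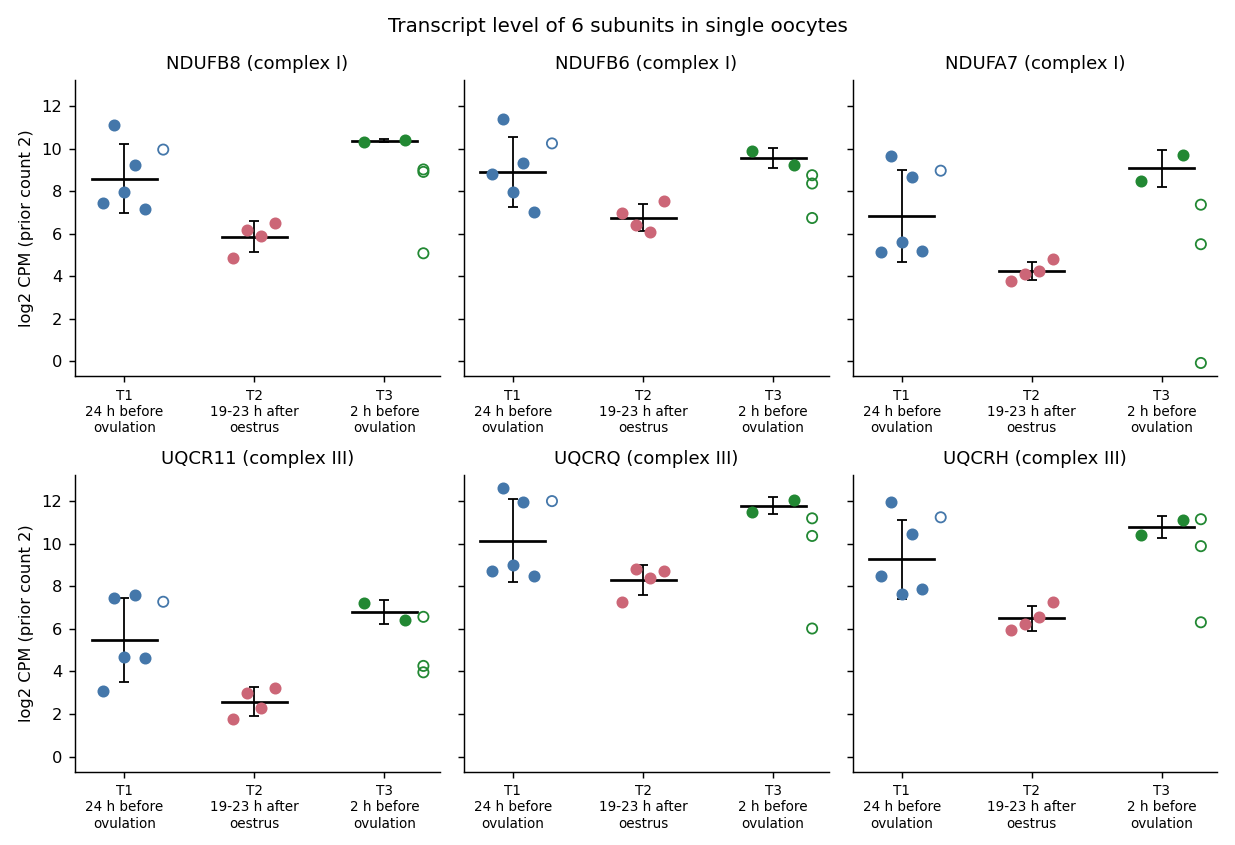
Level (log2 CPM, prior count 2) of each of the 6 subunits in each oocyte, by time point. Filled points are the 11 oocytes kept by the study, with their mean (line) and SD (bar), and open points are the 4 others, scaled over all 15 oocytes. T2 has the lowest mean in every panel, and the open T3 point at -0.08 for NDUFA7 is T3.1, which had 0 counts of that gene.

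Across the set, T2 did not overlap with T1 in 3 of 6 genes (NDUFB8, NDUFA7 and UQCRH), and 2.3% of all genes tested were lower at T2 without overlap. T3 was above T2 without overlap in 6 of 6, where 16.3% of all genes were, since T3 holds 2 oocytes. At an unadjusted p under 0.05, 6 of 6 genes were lower at T2 than at T1 (9.41% of all genes) and 6 of 6 were higher at T3 than at T2 (9.03%). The median log2 fold change of the 6 was -3.56 from T1 to T2 and 4.28 from T2 to T3, against -0.20 and -0.10 over all genes. Both comparisons use the same 4 T2 oocytes, so they are not independent. The 6 genes come from the study's table of differences, made in part on these oocytes, and were chosen with earlier results known. The shares over all genes are therefore not those of a set chosen in the same way. The choice of test decided the call. With the likelihood ratio test of edgeR, 6 of 6 genes passed an adjusted p of 0.05 and the fold threshold as lower at T2 than at T1 (3.29% of all genes), with adjusted p between 0.00469 and 0.0297. The same test called 6 of 6 higher at T3 than at T2 (4.21% of all genes), with adjusted p between 0.000391 and 0.0260. DESeq2 also called 6 of 6 in both comparisons, where it called 3.1% and 2.9% of all genes in these directions.

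**Figure D2:**
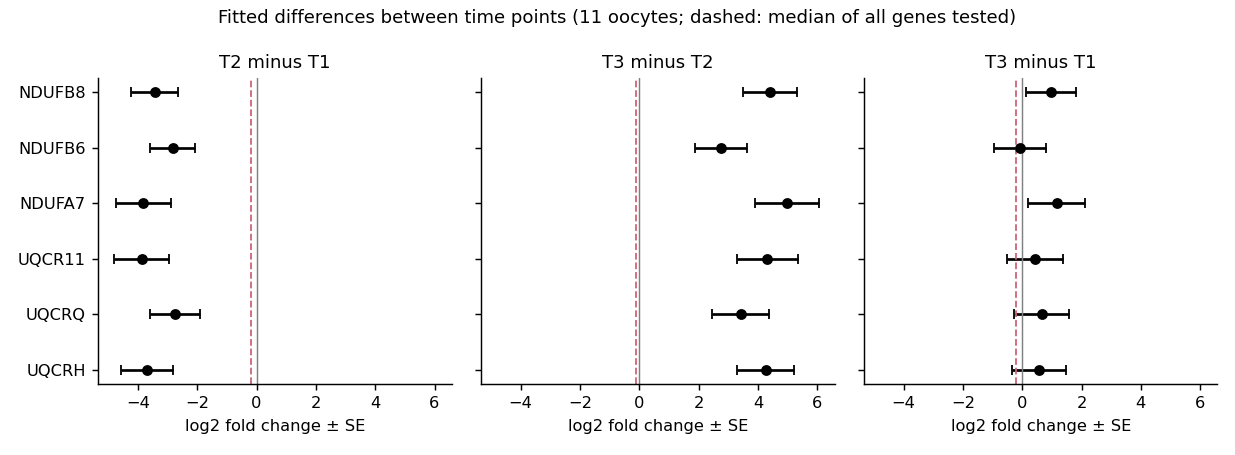
Log2 fold change ± SE of each subunit from the edgeR fit of 11 oocytes, for each pair of time points, with the median of all 10198 genes as a dashed line. The 6 values lie between -3.87 and -2.75 from T1 to T2, between 2.75 and 4.97 from T2 to T3, and between -0.08 and 1.16 from T1 to T3.

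Between T1 and T3 the levels overlapped in all 6 genes, and none had an unadjusted p under 0.05 (9.09% of all genes did). The largest log2 fold change was 1.16 ± 0.96 in NDUFA7 (adjusted p = 0.783, edgeR), a level 2.23-fold higher at T3. NDUFB8 followed with 0.97 ± 0.84 (adjusted p = 0.798, edgeR). NDUFB6 was at -0.08 ± 0.87 (adjusted p = 0.993, edgeR). For UQCR11, UQCRQ and UQCRH the values were 0.44 ± 0.95, 0.66 ± 0.93 and 0.56 ± 0.91. These values rest on T1.2. Without it, NDUFB8 was at 2.21 ± 0.57 (adjusted p = 0.134, edgeR), NDUFA7 at 2.205 ± 0.82 (adjusted p = 0.315, edgeR) and UQCRH at 1.74 ± 0.68 (adjusted p = 0.334, edgeR), each with an unadjusted p under 0.05. NDUFB6 and UQCRQ were then at 1.09 and 1.51, with larger p. Without T3.4, NDUFA7 was at 0.50. The mean log2 CPM of the 6 genes was 1.52 higher at T3 than at T1. With standard errors of the size in the full fit, a difference of 2-fold between T1 and T3 was not detectable.

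The 4 oocytes that the study set aside did not all resemble the rest of their time point. T1.4 was high in every gene, with 9.96 for NDUFB8, 10.25 for NDUFB6 and 8.97 log2 CPM for NDUFA7. It also had 7.28 for UQCR11, 12.01 for UQCRQ and 11.25 log2 CPM for UQCRH. T3.3 and T3.5 had 9.03 and 8.91 for NDUFB8 and 11.16 and 9.89 log2 CPM for UQCRH, above all T2 oocytes. T3.1 was low, with 5.08 for NDUFB8 and 6.02 log2 CPM for UQCRQ, and had 0 counts of NDUFA7 in a library of 620910. With all 15 oocytes, the same 3 genes had T2 below T1 without overlap (1.89% of all genes). T3 was then above T2 without overlap in UQCR11 alone of the 6 genes, by 0.73 (0.5% of all genes). The quasi-likelihood test called none of the 6 over 15 oocytes, with adjusted p between 0.224 and 0.293 for T2 against T1 and between 0.121 and 0.266 for T3 against T2 (edgeR). Without T3.1, over 14 oocytes, it called 2 of the 6 lower at T2 than at T1 (0.591% of all genes) and 3 higher at T3 than at T2 (0.802%).

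Single oocytes also moved the calls among the 11. Without T1.1, 6 of 6 genes were called lower at T2 than at T1 (3.22% of all genes) and 4 were called higher at T3 than at T2 (2.39%). Without T1.2, the T1 oocyte with the highest level of 5 of the 6 genes, 6 of 6 were called higher at T3 than at T2 (2.56% of all genes) and 0 between T1 and T2 (0.0%). Without T3.2, 1 was called between T2 and T3 (0.293% of all genes were higher), in a fit where T3 is T3.4 alone and takes its spread from T1 and T2. Without any other single oocyte none was called.

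The share of all counts that fell on the 6 genes, scaled to each library's total alone and without TMM factors, shows the same order. As a sum, it gives the most weight to the genes with the most counts. It was 0.436% ± 0.435 (SD, n = 5) at T1, 0.0689% ± 0.0225 (n = 4) at T2 and 0.710% ± 0.165 (n = 2) at T3. The T1 oocytes were far apart, with 1.11% in T1.2 (95% exact binomial interval 1.09% to 1.12%) and 0.651% in T1.5, and with 0.130%, 0.172% and 0.121% in T1.1, T1.3 and T1.6. The T2 oocytes had 0.0415%, 0.0753%, 0.0635% and 0.0954%, all below the lowest T1 oocyte. The T3 oocytes had 0.594% and 0.827%, below T1.2, and T3.4 was above T1.5. The highest T1 share was 9.12 times the lowest. Of the oocytes set aside, T1.4 had 0.753%, T3.3 0.458%, T3.5 0.383% and T3.1 0.0261%, the lowest of all 15. These intervals cover counting error only, since the reads are PCR copies without molecular identifiers.

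**Figure D3:**
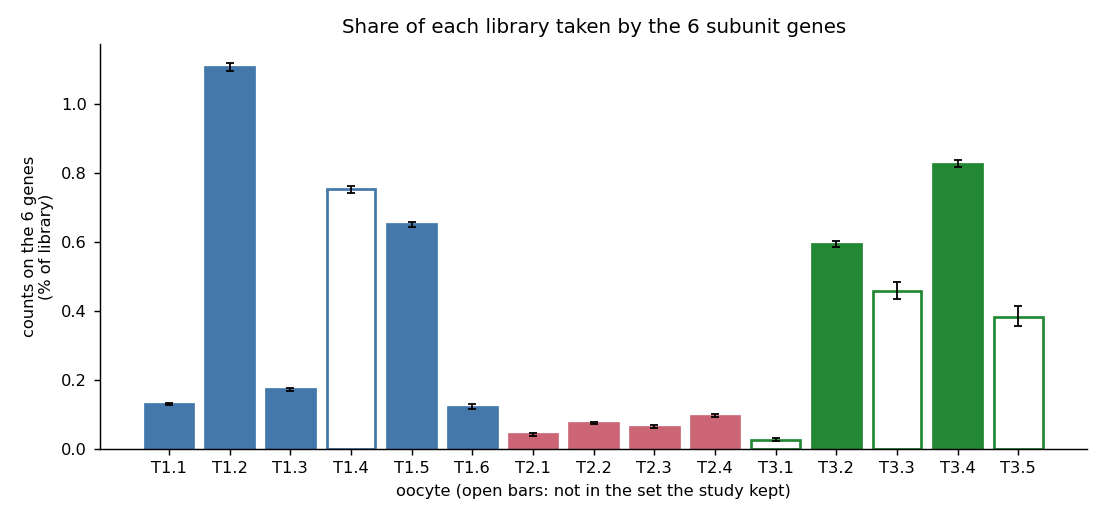
Percent of each library's counts on the 6 subunit genes, by oocyte, with 95% exact binomial intervals as error bars. Open bars are the 4 oocytes not kept by the study. The 4 T2 bars lie between 0.0415% and 0.0954%, and T1.1, T1.3 and T1.6 lie between 0.121% and 0.172%, apart from T1.2 and T1.5.

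Among the 11 oocytes, the level of the 6 genes moved with how far a library was taken up by its most abundant genes. The 10 most abundant genes of each library, none of them a member, held 17.1% of the counts in T1.2 and 13.0% in T1.5, the T1 oocytes with high subunit levels. They held 7.75%, 4.63% and 5.31% in T1.1, T1.3 and T1.6. At T2 this share was between 4.85% and 5.91%, and at T3 it was 12.8% in T3.2 and 12.3% in T3.4. Over the 11 oocytes the mean level of the 6 genes had a Pearson r of 0.933 and a Spearman rho of 0.645 with this share, and an r of 0.892 without T1.2 and T1.5. Both measures come from the same library. The oocytes set aside did not all follow: T3.1 had the highest such share of the 15, 29.8%, with the lowest mean level, 4.67 log2 CPM. T3.5 had 27.3% with a mean level of 8.34. With the total count r was 0.610 (rho 0.536), and with the number of genes above 1 count it was -0.392 (rho -0.291), where r turned to 0.141 without T3.4 and T1.2. The part of library makeup in the differences between time points was not tested.

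Complex III was then set against complex I within each oocyte, as the mean log2 CPM of UQCR11, UQCRQ and UQCRH minus that of NDUFB8, NDUFB6 and NDUFA7. The mean of complex I was 8.11 ± 1.75 (SD, n = 5) at T1, 5.62 ± 0.47 (n = 4) at T2 and 9.67 ± 0.15 log2 CPM (n = 2) at T3. That of complex III was 8.31 ± 1.87, 5.79 ± 0.60 and 9.80 ± 0.12 log2 CPM. From T1 to T2 the mean differed by -2.49 in complex I and by -2.52 in complex III, and from T2 to T3 by 4.05 and 4.01. The difference of complex III minus complex I was 0.20 ± 0.53 at T1, 0.17 ± 0.30 at T2 and 0.12 ± 0.03 at T3. It changed by -0.03 from T1 to T2 and by -0.05 from T2 to T3, less than its SD of 0.41 between oocytes of the same time point. With the median of each complex's genes in place of the mean, these changes were -0.09 and 0.35. The extremes among the 11 were both T1 oocytes, at -0.37 and 0.94. Over all 15 oocytes the T3 value was 0.72 ± 0.64 (n = 5), with 1.52 in T3.1, 1.22 in T3.5 and 0.62 in T3.3, but these values rest on few counts. The value of T3.1 comes from the prior count on its 0 counts of NDUFA7. By summed counts, T3.1 had 76 on complex I and 86 on complex III, a ratio of 1.13 and the lowest of the 15 oocytes. T3.3 had 222 and 1023, a ratio of 4.61 and the highest of the 15. T3.5 had 193 and 479, a ratio of 2.48, with 9 counts of NDUFA7. Among the 11, T2.1 also had few counts, 194 and 250, a ratio of 1.29.

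**Figure D4:**
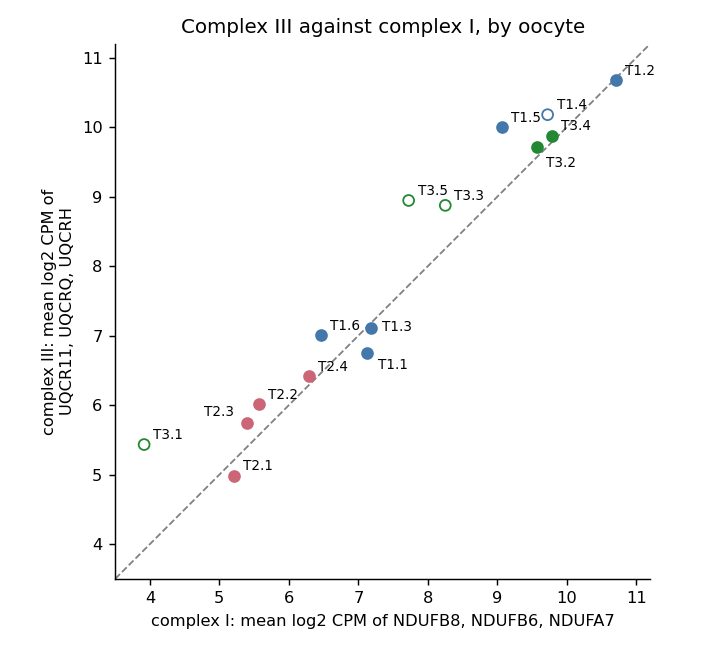
Mean log2 CPM of the 3 complex III genes against that of the 3 complex I genes, 1 point per oocyte, with equal levels as a dashed line (blue T1, red T2, green T3, open points the oocytes not kept by the study). The points run along the line from T2.1 to T1.2. The farthest above it are T3.1, at 1.52, T3.5, at 1.22, and the filled point T1.5, at 0.94.

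All pairs of the 6 genes varied together. Over the 11 oocytes Pearson r ran from 0.841 (NDUFB6 with UQCR11) to 0.979 (NDUFA7 with UQCRQ), with a median of 0.911 for the 3 pairs within complex I, 0.940 for the 3 within complex III and 0.943 for the 9 pairs between the complexes. With the mean of each time point removed, r was between 0.624 and 0.970. The pair with the steadiest ratio was NDUFB8 and UQCRH, from different complexes, whose log2 ratio had an SD of 0.49, and the least steady was NDUFB6 and UQCR11, with 1.19. The points of each correlation share their library and depth.

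NDUFB6 departed most from the others. Its r with the mean of all 6 was 0.926, the lowest of the set, against 0.986 for NDUFB8. The log2 ratio of NDUFB8 over NDUFB6 was -0.31 ± 0.59 (SD, n = 5) at T1, -0.89 ± 0.89 (n = 4) at T2 and 0.82 ± 0.57 (n = 2) at T3. Single oocytes ranged from -2.11 in T2.1, with 33 counts of NDUFB8 and 146 of NDUFB6, to 1.22 in T3.4, with 3145 and 1351. Both T3 oocytes lay above all T1 and T2 oocytes, as did T3.3 (0.66), whereas T3.1 (-1.66) did not. T3.5, at 0.157 on 97 and 87 counts, was level with T1.6, at 0.145 on 156 and 141 counts. Within complex III, the log2 ratio of UQCRQ over UQCRH was 0.87 ± 0.55 at T1, 1.81 ± 0.56 at T2 and 1.02 ± 0.11 at T3. The highest value was 2.58 in T2.2, but T1.3 and T1.5 overlapped with T2, at 1.39 and 1.49. These pairs were picked after their values were seen, so the ratios are given without a test.

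**Figure D5:**
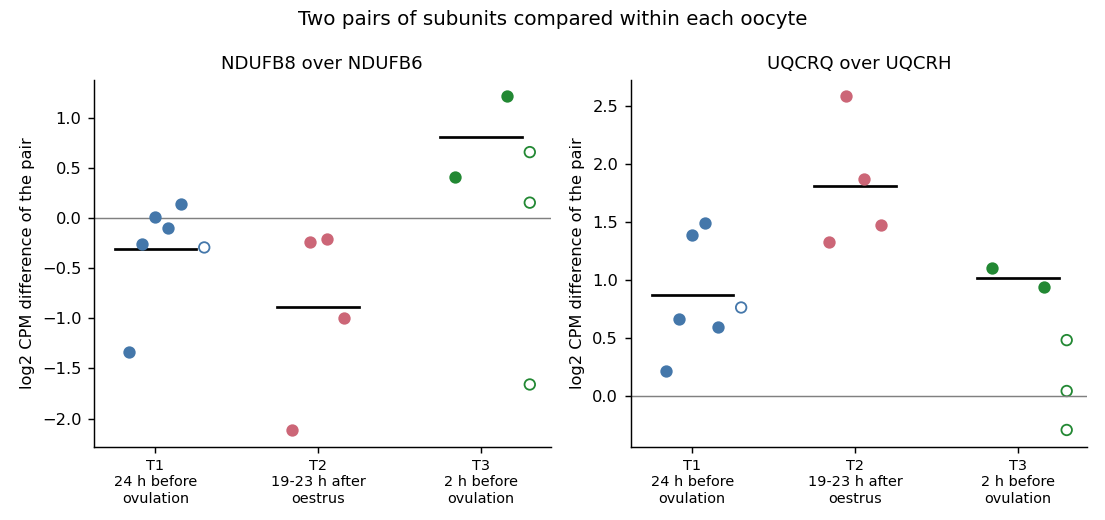
Log2 CPM difference of NDUFB8 over NDUFB6 (left) and of UQCRQ over UQCRH (right) in each oocyte, by time point, with lines at the means of the 11 oocytes kept by the study and open points for the others. NDUFB8 over NDUFB6 is highest in T3.4, at 1.22, and UQCRQ over UQCRH is highest in T2.2, at 2.58.

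Other genes of both complexes could be named only where the study's own table of differences between oocyte classes pairs a symbol with an Ensembl identifier. This left 7 of 30 accessory subunits of complex I, 3 of 5 small subunits of complex III (all members) and none of the mitochondrially encoded subunits. The study chose these genes on these oocytes, the accessory and small subunits for being higher in DF oocytes, so they are not independent evidence. None passed the quasi-likelihood test. Of the 7 accessory subunits, 7 were lower at T2 than at T1 and 7 were higher at T3 than at T2 at an unadjusted p under 0.05, where 9.41% and 9.03% of all genes were. Beyond the members these were NDUFA1, NDUFA5, NDUFA11 and NDUFB2, with log2 fold changes of -1.87, -2.38, -4.06 and -3.91 from T1 to T2 and of 2.71, 3.13, 4.58 and 3.78 from T2 to T3. NDUFA1 had the smallest difference from T1 to T2 (± 0.64, adjusted p = 0.222, edgeR) and NDUFA11, a membrane-arm subunit, the largest (± 0.96, adjusted p = 0.132, edgeR).

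NDUFV1, a catalytic core subunit that carries the NADH site, had a log2 fold change of -1.49 ± 0.93 from T1 to T2 (adjusted p = 0.583, edgeR) and of 1.38 ± 1.12 from T2 to T3 (adjusted p = 0.558, edgeR). Its unadjusted p was not under 0.05 in either comparison, and its difference from the accessory subunits was not tested. NDUFV1, too, was picked by the study on these oocytes, with the other sign. BCS1L, which inserts the iron-sulphur protein into complex III, had 0.93 (adjusted p = 0.865, edgeR) and -1.91 (adjusted p = 0.637, edgeR). ACAD9, a complex I assembly factor, had at most 27 counts and 0 counts in both T3 oocytes, so no fold change is given.

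Among the genes with a symbol whose level over the 11 oocytes was most like the mean of the 6 members were RPL14 (Pearson r 0.989), NME2 (0.988), PET100 (0.988) and COX6A1 (0.986). RPL14 encodes a ribosomal protein, NME2 a nucleoside diphosphate kinase, PET100 an assembly factor of complex IV and COX6A1 a complex IV subunit. COX6A1 was at 9.78 ± 2.14 log2 CPM at T1, 6.88 ± 0.84 at T2 and 11.32 ± 0.20 at T3. The members themselves ranked from 4 (UQCRH) to 230 (NDUFB6) of 10198 genes by this measure, in which they take part, and 332 genes (3.26%) had an r above 0.9. The pattern was thus shared with genes outside both complexes. At the other end were CCDC115 (r -0.947), NBEAL1 (-0.908) and BIRC6 (-0.898). BIRC6, an inhibitor of apoptosis protein, was at 7.27 ± 0.96 log2 CPM at T1, 7.90 ± 0.41 at T2 and 6.27 ± 0.61 at T3.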

How the data were processed

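The authors prepared poly-A libraries from single oocytes (Smart-seq2 oligo-dT capture, Nextera XT), sequenced them as single-end reads, trimmed them with Trim Galore (version 0.6.6 by the submitters' processing notes), used HISAT2 for alignment against ARS-UCD1.2, and counted them in SeqMonk. The deposited values are raw counts per Ensembl gene, not normalized. Annotation release, strand setting, treatment of duplicates and of reads with several matches are not given in the sources used here, and small respiratory subunits can have processed pseudogenes, so part of their reads may be misassigned. Oligo-dT capture also depends on the poly-A tail. No sequences or coordinates are printed, because no annotation of the files' build was at hand, and gene neighbours come from RefSeq on ARS-UCD2.0, a different build.

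All 15 count columns were matched by name. The time points were fitted together over the 11 oocytes kept by the study with edgeR (version 4.0.16, R 4.3.3): TMM factors, filterByExpr, the quasi-likelihood test and Benjamini-Hochberg adjustment over 10198 genes. Calls needed an absolute log2 fold change above 1.5 beside an adjusted p under 0.05, as in the study. Fold changes rest on fitted mean counts, and levels are log2 CPM (prior count 2). Alternatives were DESeq2 (version 1.42.0), the likelihood ratio test, other scalings and filters, counts thinned to 824854 per oocyte, all 15 oocytes, each oocyte left out in turn and a replicate block. The fit was tested on simulated counts in which 200 genes were changed by 4 on the log2 scale. At a dispersion of 0.1 it called between 95.5% and 97% of them. At 0.8, near the common dispersion of 0.773 in these data, it called fewer. The shares were then 53.5% for T2 against T1, 22% for T3 against T2 and 28% for T3 against T1. Shares have 95% exact binomial intervals from scipy (version 1.17.1). The 11 libraries held 824854 or more counts each, and T3 has 2 oocytes. UQCR11 and NDUFA7 had few counts at T2.

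Symbols came from the study's supplementary table (1741 of 1829 identifiers). Of each list of complex subunits, assembly factors and cell type markers, fewer than 80% could be named, so counts hold for the named genes alone. The lists named 1 of 16 complex I assembly factors, 1 of 9 of complex III, 0 of 4 core subunits of complex III, 0 of 5 genes of complex II and cytochrome c, 5 of 15 oocyte, 1 of 15 cumulus and granulosa, 0 of 10 leukocyte and 0 of 8 erythrocyte markers. The genes named were the 6 members, the largest and smallest changes of each list, the 3 most abundant markers and the genes most and least like the members' mean. Some genes that these rules select are not reported here. The members and lists were chosen with earlier results of these data known. The study's oocytes from the ovarian cortex were not analysed here.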

Additional observations from a re-analysis of the deposited data

Results flagged for a closer look

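Among 28 groups of 4 to 6 oocytes examined for a sample far from the others, 3 had one, and chance gives about 1 in 20. All 3 were the oocyte T3.1 among the 5 T3 oocytes, which the study had set aside. Its level was 5.08 log2 CPM for NDUFB8, with a gap to the nearest oocyte of 0.725 of the group's range. It was 6.02 for UQCRQ (0.726) and 6.31 log2 CPM for UQCRH (0.739), where 0.71 is the critical value for 5 samples. These levels rest on 18, 35 and 43 counts. T3.1 had more counts in all, 620910, than T3.3 (271763) and T3.5 (175263), whose levels were higher.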

How the results depend on the processing

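The members' fold changes kept their sign under every alternative run for T2 against T1 (-4.17 to -1.57) and for T3 against T2 (1.87 to 5.33). The number of members called, 0 with the quasi-likelihood test over 11 oocytes, varied. For T2 against T1 it was 6 with DESeq2, 6 with the likelihood ratio test, 6 without a filter, 4 of 5 with at least 10 counts in every oocyte (UQCR11 was not tested there), 2 over 14 oocytes without T3.1 (an alternative chosen after seeing the data), and 0 to 6 with each oocyte left out. For T3 against T2 it was 6, 6, 6, 3, 3 and 0 to 6 under these, 3 with library size alone and 4 with thinned counts. The cause was not tested. The strict filter tested fewer genes (4161) and the fit without a filter more (14321) than the main fit (10198). For T3 against T1 no alternative called a member, and signs turned. NDUFB6 was at 0.0031 with library size alone and -0.41 to 1.09 with each oocyte left out. Over all 15 oocytes NDUFA7 was at -0.068, UQCR11 at -0.37 and UQCRQ at -0.18, over 14 oocytes UQCR11 was at -0.11, and with a replicate block UQCRH was at -0.19. Complex III minus complex I moved over all 15 oocytes to 0.54 for T3 against T2 and 0.48 for T3 against T1. With the median of each complex's genes in place of the mean, it was 0.35 and 0.25 over the 11 oocytes. Library size alone shifted the median log2 fold change of all genes for T3 against T2 from -0.10 to -0.44, and upper-quartile factors to -0.26. Replicate numbers mark no shared animal. With the mean of each time point removed, the correlation of same-numbered oocytes ran from -0.02 to 0.14 over 6 pairs. That of differently numbered oocytes ran from -0.13 to 0.07 over 32 pairs. T3.2 and T3.4 mirror each other in these values, so their pairs are not independent. With so few pairs, it cannot be told whether same-numbered oocytes shared a batch. With the replicate block 0 members were called in each comparison. The common dispersion was 0.773, and those of the members ran from 0.503 to 0.657.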
